A study of Mus musculus with 6 samples.

Results

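The 9 genes described here encode the core of hepatic glycogen synthesis and breakdown, namely Gys2, Gyg, Gbe1, Ugp2, Pygl, Phka2, Phkg2, Ppp1r3b and Ppp1r3c. They were chosen by name for their place in the pathway, with earlier results of these data known. All 9 were found among the 25184 genes of the deposited count table. RNA was sequenced from primary mouse hepatocytes of 2 genotypes, with 3 libraries each. The control libraries, Sucnr1 fl/fl, came from mice with loxP-flanked Sucnr1 alleles and no Cre. The Hep-Sucnr1 KO libraries came from mice with the same floxed alleles and a Cre transgene under the albumin promoter, which is active in hepatocytes. Sucnr1 encodes a cell-surface receptor for succinate. The Cre line had a C57BL6J background. All mice were on chow, and the hepatocytes were plated overnight in a high-glucose attachment medium with serum before lysis, so that each value describes cultured cells. Neither the age nor the sex of the mice behind these 6 libraries is stated in the sources used here, and the labels do not name the mouse behind each library, so the p-values measure the spread between libraries. RNA was extracted on 2 days. Sucnr1 fl/fl replicate 1 and Hep-Sucnr1 KO replicate 3 belong to day 1, and the other 4 libraries to day 2. Sucnr1 fl/fl replicates 1 and 2 carry the library indexes 39 and 40, whereas Sucnr1 fl/fl replicate 3 and all Hep-Sucnr1 KO libraries carry 85 to 88, so that genotype and index series overlap in part and cannot be fully told apart.

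Glycogen is the branched glucose store of the liver. UDP-glucose pyrophosphorylase (Ugp2) makes the activated sugar, glycogenin (Gyg) primes the particle, glycogen synthase (Gys2 in liver) extends the chains and the branching enzyme (Gbe1) introduces the branch points. Glycogen phosphorylase (Pygl in liver) releases glucose units and is switched on by phosphorylase kinase, whose regulatory alpha subunit and catalytic gamma subunit of liver are encoded by Phka2 and Phkg2. Glucagon acts through this kinase, whereas insulin favors dephosphorylation by protein phosphatase 1, which is brought to the glycogen particle by targeting subunits such as Ppp1r3b and Ppp1r3c. Much of the control is by phosphorylation and allostery, which transcript counts do not measure.

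Liver and other tissues use separate synthase and phosphorylase genes with related coding sequences. To let a reader see how the transcripts are told apart, windows centered on the longest run of identical coding bases are shown. The pairs are Gys2 with Gys1, the muscle form, and Pygl with Pygb, the brain form, whereas Pygm, the muscle phosphorylase, is not shown. Capitals mark the bases at which the members of a pair differ, and each window of 60 bases lies within a single coding exon in GRCm38. The Gys2 window is chr6:142451539-142451598 (minus strand) and the Gys1 window chr7:45443570-45443629 (plus strand), with 9 differences. The Pygl window is chr12:70201914-70201973 (minus strand) and the Pygb window chr2:150815001-150815060 (plus strand), with 7 differences.
Gys2: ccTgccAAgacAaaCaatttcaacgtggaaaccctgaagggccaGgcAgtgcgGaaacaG
Gys1: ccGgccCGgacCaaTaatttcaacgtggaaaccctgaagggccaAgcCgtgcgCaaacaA
Pygl: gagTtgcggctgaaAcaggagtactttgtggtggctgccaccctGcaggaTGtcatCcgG
Pygb: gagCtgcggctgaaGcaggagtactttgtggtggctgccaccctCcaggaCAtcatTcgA

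The longest run of identical coding bases was 29 for Gys2 and Gys1, 29 for Pygl with either Pygb or Pygm, 27 for Phka2 and Phka1, 16 for Ppp1r3b and Ppp1r3c, and 14 for Phkg2 and Phkg1. In GRCm38 the whole genes lie at chr6:142422613-142473109 (Gys2, minus strand), chr12:70190811-70231488 (Pygl, minus), chr7:127573340-127583307 (Phkg2, plus), chr8:35375739-35388139 (Ppp1r3b, plus) and chr19:36731731-36736653 (Ppp1r3c, minus), all protein-coding. Annotated genes on the opposite strand of Phkg2, Ppp1r3b, Ugp2 and Pygl held at most 80 counts over the 6 libraries, on a strand-specific count.

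Sequence before the RefSeq start is shown for 2 members, Pygl because it was the most abundant member acting on the polymer, and Ppp1r3c because it varied most between libraries. Of the 9 members, 7 had an entry in the RefSeq promoter table for GRCm38.p6. The stretches are chr12:70227684-70227933 (Pygl, minus strand, the 250 bases before the RefSeq start) and chr19:36736654-36736854 (Ppp1r3c, minus strand, 50 to 250 bases before it). The whole Pygl gene as annotated, chr12:70190811-70231488, begins farther upstream. The Pygl stretch therefore lies inside the annotated gene, outside the annotated exons of its strand. Capitals mark matches, on either strand, to the GC box GGGCGG in Pygl, and to the E-box CACGTG and the CCAAT box (written ATTGG on the strand shown) in Ppp1r3c.
Pygl: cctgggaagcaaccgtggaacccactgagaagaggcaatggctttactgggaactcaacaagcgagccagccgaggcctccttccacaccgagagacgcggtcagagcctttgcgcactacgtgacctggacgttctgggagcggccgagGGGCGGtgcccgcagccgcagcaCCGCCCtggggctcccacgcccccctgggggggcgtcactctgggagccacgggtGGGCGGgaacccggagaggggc
Ppp1r3c: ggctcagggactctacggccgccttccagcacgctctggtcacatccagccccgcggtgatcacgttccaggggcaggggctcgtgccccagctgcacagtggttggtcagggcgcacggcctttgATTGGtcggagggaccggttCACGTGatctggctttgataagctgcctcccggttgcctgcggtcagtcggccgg

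The Pygl stretch had 3 GC boxes and a GC content of 69.2%, and 32.74% of 32851 promoters held a GC box in a stretch of that length. The Ppp1r3c stretch had 1 E-box, found in 4.36% of promoters at the same length, and 1 CCAAT box, found in 28.59%. The cAMP response element TGACGTCA did not occur in either stretch, and only 1.55% and 0.85% of promoters held it at the Pygl and Ppp1r3c lengths. These are matches of letters and not sites shown to be bound.

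Library totals ran from 30504248 to 38770694 counts. Sucnr1, the deleted gene, measured 6.71, 3.55 and 3.40 CPM (counts relative to the library total, as adjusted by edgeR's TMM factors) in Sucnr1 fl/fl and 2.66, 0.827 and 0.152 CPM in Hep-Sucnr1 KO replicates 3, 4 and 5. Each KO library was below each control library, but replicate 3 kept 84 counts where replicate 5 had 5. The log2 fold change was −2.23 (SE 0.54), with an FDR of 0.998 by edgeR's quasi-likelihood test and an adjusted p of 0.0328 by DESeq2's Wald test. Hepatocyte markers summed to between 60378 and 92123 CPM. Kupffer cell markers summed to 24.8 to 91.0 CPM in Sucnr1 fl/fl and 5.03 to 77.5 CPM in Hep-Sucnr1 KO, endothelial markers to 27.0 to 50.9 and 21.0 to 34.4 CPM, and stellate cell markers to 4.71 to 20.7 and 3.43 to 7.53 CPM. Of the cholangiocyte markers, Krt19, Krt7, Epcam and Cftr reached at most 2.61 CPM, whereas Spp1 (266 to 526 CPM) and Sox9 (83.2 to 122 CPM) made up nearly all of their sum of 350.2 to 512 and 426 to 650.5 CPM. Zonation genes were summed too, pericentral genes to 2249 to 3347 and 1532 to 5700 CPM, and periportal genes to 5919 to 8455 and 5966 to 8756 CPM. Gene by gene, 10 of 11 pericentral genes had a positive log2 fold change (median 0.23, beside 0.00 over all genes tested) and 1 a negative one. The KO libraries differed widely, however, with pericentral sums of 2448, 5700 and 1532 CPM in replicates 3, 4 and 5. Replicate 5 was thus below every control library and replicate 4 above every one. Of 10 periportal genes, 2 were positive and 8 negative (median −0.05). In both lists 0 genes were below an FDR of 0.05 by edgeR. Of the stellate markers, Hand2 was at 0 in 4 of 6 libraries. In such bulk samples, fewer cells of a type and less RNA per cell cannot be told apart.

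All 9 members passed the filter on low counts, with 111 to 16051 counts per library. Levels between genes were compared per kilobase of the longest coding transcript, and their order depends on that choice. For Pygl and Gbe1 this length was 2992 and 3303 bases, but the union of all exons is 6895 and 5352. For Gys2 both are 2657. Ugp2 (124 ± 21.3 CPM per kb, SD over 6 libraries) and Pygl (114 ± 10.5) were highest, and their ranges overlapped. Gbe1 (36.2 ± 0.807) came next, below every Pygl value, followed by Gys2 (30.1 ± 6.27), Ppp1r3b (18.3 ± 4.09), Ppp1r3c (8.53 ± 5.10) and Phkg2 (5.20 ± 0.683), where each gene's range overlapped with that of the next. Gyg (2.01 ± 0.320) and Phka2 (1.40 ± 0.0955) were lowest, and the 2 overlapped with each other but not with Phkg2. Across libraries the members differed greatly in steadiness. The highest Gbe1 value was 1.06 times the lowest in CPM, whereas the same ratio was 1.20 for Phka2, 1.30 for Pygl, 1.66 for Gys2, 1.80 for Ppp1r3b and 4.16 for Ppp1r3c.

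**Figure D1:**
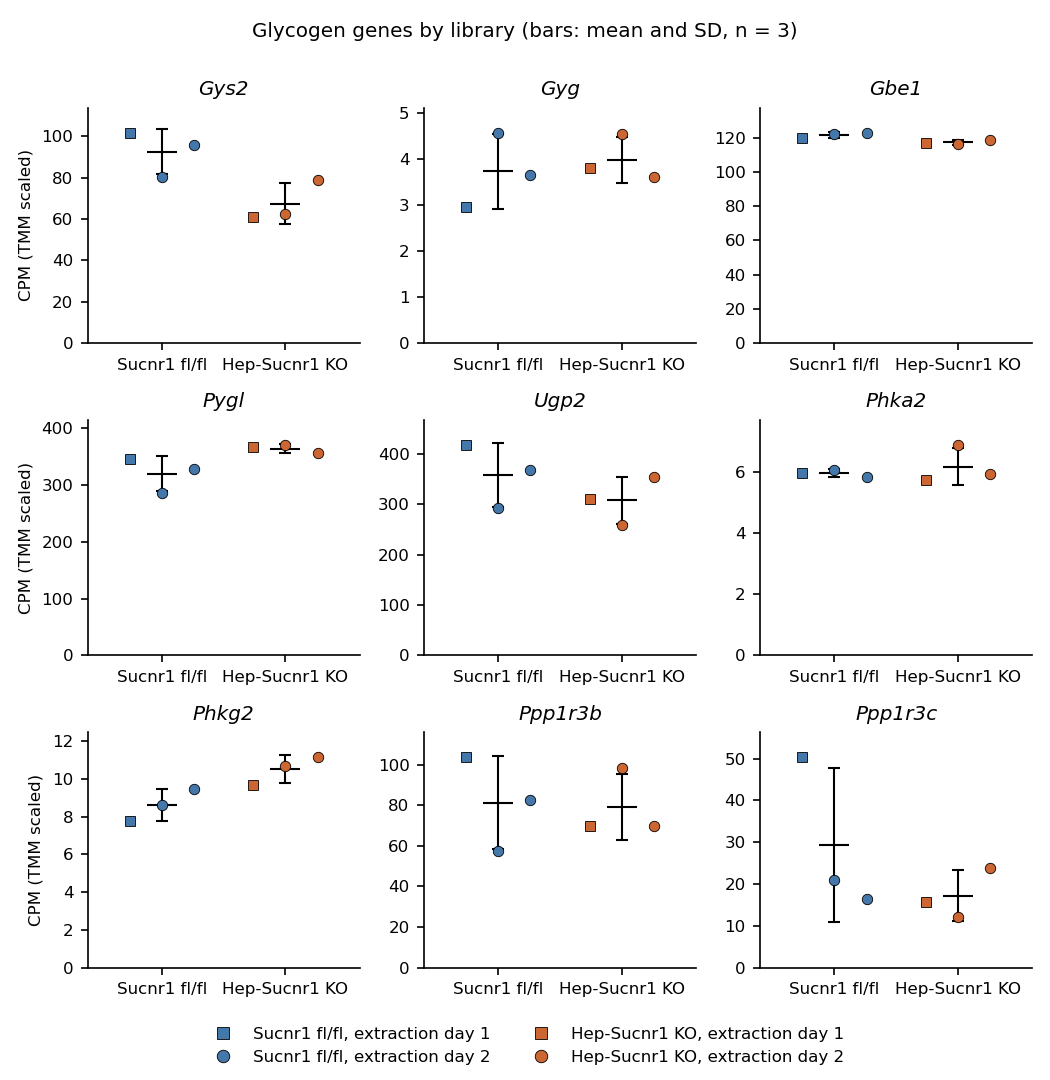
Level of each of the 9 glycogen genes in CPM (TMM scaled, axes from 0) in the 3 Sucnr1 fl/fl and 3 Hep-Sucnr1 KO libraries, with squares for extraction day 1, circles for day 2, and bars for the mean and SD. Every Hep-Sucnr1 KO point is below every Sucnr1 fl/fl point for Gys2 and Gbe1 and above for Pygl and Phkg2, and Sucnr1 fl/fl replicate 1 stands apart at 50.3 CPM for Ppp1r3c.

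The main comparison asked which of these transcripts differ between the Hep-Sucnr1 KO and the Sucnr1 fl/fl libraries. None passed the test after adjustment over the 15105 genes tested. The FDR was 0.998 for each of the 9 by edgeR's quasi-likelihood test with extraction day as covariate, as it was for all genes (0 called, 0%), and the DESeq2 adjusted p was 0.9998 for each of the 9, where 7 of 11005 genes (0.0636%) were called. At an unadjusted p below 0.05, 1 of the 9 (11.1%) was lower, Gys2, against 1.81% of all genes lower, 1.91% higher and 3.73% in either direction. The genotypes did not overlap for 4 of the 9 (44.4%), against 10.6% of all genes. Of these, Pygl and Phkg2 were higher in Hep-Sucnr1 KO (22.2%, against 6.54% of all genes) and Gys2 and Gbe1 lower (22.2%, against 4.04%). Because the members were chosen with earlier results of these data known, these shares are a description and not a test of the pathway. Fold changes were positive for 4 members and negative for 5, with a median log2 value of −0.02, beside 0.00 over all genes tested.

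Among the genes of synthesis, Gys2 had the clearest difference. It measured 102, 80.3 and 95.7 CPM in Sucnr1 fl/fl and 61.2, 62.2 and 78.8 CPM in Hep-Sucnr1 KO. The highest KO library, replicate 5, was just below the lowest control library, replicate 2. The means were 92.6 ± 11 and 67.4 ± 9.90 CPM (SD, n = 3 each), a log2 fold change of −0.46 (SE 0.15, 95% interval −0.82 to −0.09) or 0.729-fold, with an unadjusted p of 0.0215 from edgeR, the rank 181 of 15105 genes. An exact two-sided permutation test gave p = 0.1, the smallest that 3 libraries against 3 allow. Gys2 was lower on both extraction days, by a log2 ratio of −0.73 between the 2 libraries of day 1 and −0.32 on day 2. Leaving out any single library gave values from −0.60 to −0.32. The edgeR estimate was −0.33 (SE 0.17) on day 2 alone and −0.51 (SE 0.24) with the index series as a further term. Both standard errors are larger than in the reported model. The part of the markers of other cells in this difference was not tested.

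Ugp2, which supplies UDP-glucose to Gys2, measured 418, 292 and 367 CPM in Sucnr1 fl/fl and 311, 259.8 and 353 CPM in Hep-Sucnr1 KO. The groups overlapped, and the log2 fold change was −0.21 (SE 0.18, 95% interval −0.63 to 0.21). Leaving out Hep-Sucnr1 KO replicate 5 gave −0.38, and leaving out Sucnr1 fl/fl replicate 1 gave −0.10. Gbe1, the branching enzyme, measured 119.8, 122 and 123 CPM in Sucnr1 fl/fl and 117, 116 and 119 CPM in Hep-Sucnr1 KO. Here the groups did not overlap but lay very close, with a log2 fold change of −0.05 (SE 0.10, 95% interval −0.29 to 0.19). Gyg, the primer, ranged from 2.97 to 4.57 CPM in Sucnr1 fl/fl and from 3.61 to 4.55 CPM in Hep-Sucnr1 KO, with a log2 fold change of 0.11 (SE 0.21) that was −0.02 on day 2 alone.

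Of the genes of breakdown, Pygl measured 346, 286 and 328 CPM in Sucnr1 fl/fl and 366, 370.4 and 356 CPM in Hep-Sucnr1 KO. The KO libraries were all higher and also closer to each other, at 319.7 ± 30.8 against 364 ± 7.49 CPM (SD, n = 3 each). This gave a log2 fold change of 0.19 (SE 0.13, 95% interval −0.11 to 0.49) and an unadjusted p of 0.174 from edgeR, and the exact permutation test gave p = 0.1. It was positive on both days, at 0.08 on day 1 and 0.24 on day 2, but was 0.12 without Sucnr1 fl/fl replicate 2, the lowest library, and 0.11 with the index series as a term.

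Phkg2, the catalytic subunit of the kinase that activates Pygl, measured 7.78, 8.60 and 9.46 CPM in Sucnr1 fl/fl and 9.69, 10.7 and 11.1 CPM in Hep-Sucnr1 KO. Again the groups did not overlap, although the gap between the nearest libraries was small. The means were 8.61 ± 0.843 and 10.5 ± 0.745 CPM (SD, n = 3 each), with a log2 fold change of 0.29 (SE 0.12, 95% interval −0.01 to 0.58) and an unadjusted p of 0.0551 from edgeR. The ratio was similar on the 2 days, at 0.32 and 0.27, and leaving out any single library gave values from 0.25 to 0.33. At these counts of 286 to 367 per library, counting error alone is 5.91% at the lowest library. Phka2, the regulatory subunit of the same kinase, ranged from 5.84 to 6.08 CPM in Sucnr1 fl/fl and from 5.73 to 6.88 CPM in Hep-Sucnr1 KO, with a log2 fold change of 0.05 (SE 0.15).

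**Figure D2:**
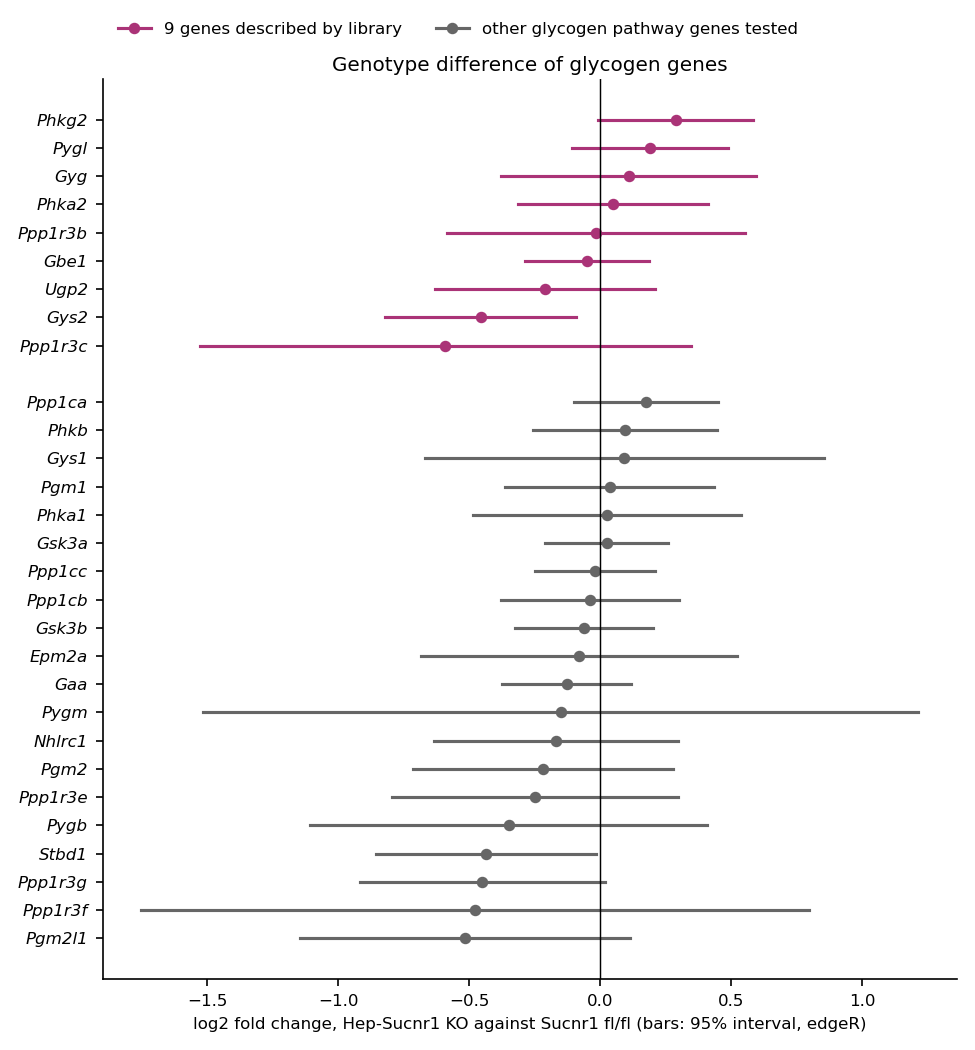
Genotype difference (Hep-Sucnr1 KO over Sucnr1 fl/fl, log2) with its 95% interval from edgeR for the 9 glycogen genes and, below them, other tested genes of the pathway. Of the 9, the interval lies wholly below 0 for Gys2 (−0.82 to −0.09), nearly clears 0 for Phkg2 (−0.01 to 0.58), and is widest for Ppp1r3c (−1.53 to 0.35).

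The phosphatase targeting subunits were the most variable members. Ppp1r3c measured 50.3, 21.0 and 16.4 CPM in Sucnr1 fl/fl and 15.7, 12.1 and 23.9 CPM in Hep-Sucnr1 KO. Sucnr1 fl/fl replicate 1 was far above the other 5 libraries, which overlapped between genotypes. The log2 fold change was −0.59 (SE 0.39, 95% interval −1.53 to 0.35), −0.06 without Sucnr1 fl/fl replicate 1 and −1.08 without Hep-Sucnr1 KO replicate 5. It was −0.07 without Hep-Sucnr1 KO replicate 3, the other library of day 1, and −0.06 with the index series as a further term. On day 1, where replicate 1 is the only control, the log2 ratio was −1.68, against −0.06 on day 2. For this difference between the days, the interaction term in edgeR had an unadjusted p of 0.0303 (FDR 0.9997), with 3.69% of all genes under an unadjusted p of 0.05. The same control library had the highest summed level of stellate cell markers, 20.7 CPM against 3.43 to 7.79 CPM in the other 5, and of endothelial markers, 50.9 CPM, and the highest values of Gys2, Ugp2 and Ppp1r3b. The part of these cells in the Ppp1r3c value was not tested.

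Ppp1r3b, the main targeting subunit of liver, measured 104, 57.6 and 82.6 CPM in Sucnr1 fl/fl and 69.9, 98.1 and 69.7 CPM in Hep-Sucnr1 KO. Each genotype had 1 library near 100 CPM, and the groups overlapped across nearly their whole range. The log2 fold change was −0.02 (SE 0.24, 95% interval −0.59 to 0.55), and its sign depended on the libraries used, with −0.57 on day 1 and 0.26 on day 2. Between the extraction days themselves, day 2 against day 1 with genotype in the model, no member passed the test. The largest of these differences was −0.70 (SE 0.41, FDR 0.831 by edgeR) for Ppp1r3c, and over all genes edgeR called 0 (7.49% at an unadjusted p below 0.05) and DESeq2 called 225 of 13933 (1.61%), none of them a member.

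Ratios of transcripts within a library do not depend on the scaling between libraries. Of the 4 compared, 2 were between members and 2 were shares of a liver isoform in the sum with its paralogs. The ratio of synthase to phosphorylase, Gys2 to Pygl per kb, was 0.331, 0.317 and 0.329 in Sucnr1 fl/fl and 0.188, 0.189 and 0.249 in Hep-Sucnr1 KO. The control libraries were almost alike, and all KO libraries lay well below them. On the log2 scale the means were −1.62 ± 0.0346 and −2.27 ± 0.233 (SD, n = 3 each), a difference of −0.65 or 0.636-fold, and the exact two-sided permutation p was 0.1, the smallest possible, or 0.267 after Benjamini-Hochberg adjustment over the 4. The difference ranged from −0.79 to −0.58 when single libraries were left out, and was −0.57 on day 2 alone. Both genes enter this ratio, and its groups were bound not to overlap once Gys2 was lower and Pygl higher in every KO library. The ratio of Ppp1r3c to Ppp1r3b overlapped between genotypes, with a log2 difference of −0.63 (exact permutation p = 0.4) that ran from −0.99 without Sucnr1 fl/fl replicate 3 to −0.24 without Hep-Sucnr1 KO replicate 4. It was −0.34 without Sucnr1 fl/fl replicate 1 and −0.98 without Hep-Sucnr1 KO replicate 5.

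**Figure D3:**
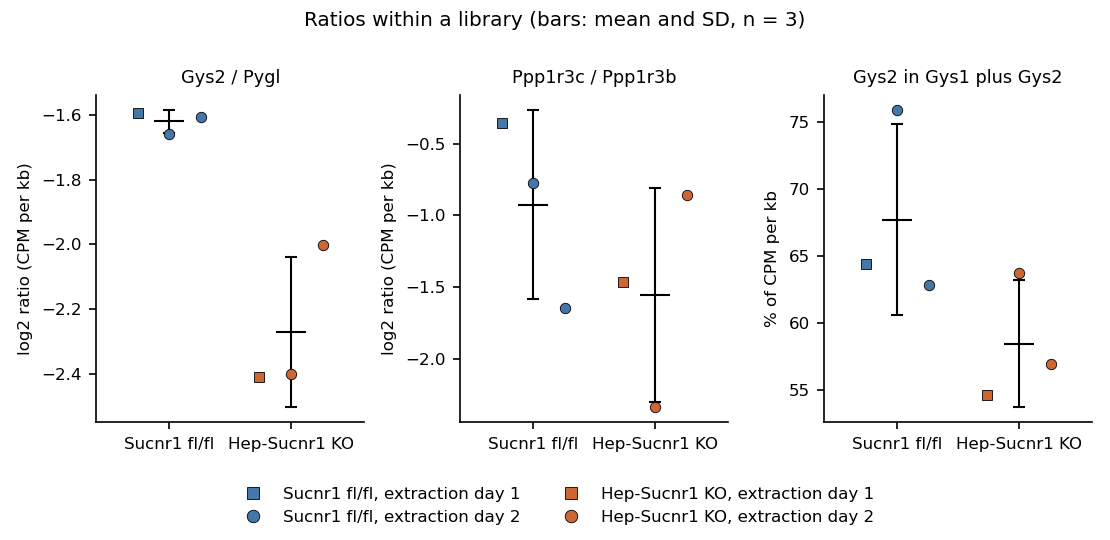
Ratios of transcript levels per kb within each library by genotype, with squares for extraction day 1, circles for day 2, and bars for the mean and SD of 3 libraries; axes do not start at 0. For Gys2 to Pygl the control libraries lie between −1.66 and −1.59 and the Hep-Sucnr1 KO libraries between −2.41 and −2.0 on the log2 scale, whereas the groups overlap in the other 2 panels.

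The liver isoforms were set beside their paralogs. Gys2 made up 64.4%, 75.9% and 62.9% of Gys1 plus Gys2 per kb in Sucnr1 fl/fl and 54.7%, 63.8% and 57.0% in Hep-Sucnr1 KO. These shares overlapped, with a difference of −9.24 percentage points (exact two-sided permutation p = 0.2, adjusted 0.267), or −5.17 points without Sucnr1 fl/fl replicate 2. Gys1, the synthase of muscle and most other tissues, was itself well expressed, at 77.7, 35.4 and 78.2 CPM in Sucnr1 fl/fl and 70.2, 48.9 and 82.5 CPM in Hep-Sucnr1 KO. Its log2 fold change of 0.09 (SE 0.32) became −0.21 without Sucnr1 fl/fl replicate 2, the lowest library. Pygl made up 99.2% to 99.6% of the phosphorylase transcripts in all 6 libraries. Pygb, the brain form, was at 1.49 to 3.19 CPM and Pygm, the muscle form, at 0.0911 to 0.354 CPM. Phka1 (0.348 to 0.445 CPM per kb), the muscle alpha subunit, was below Phka2 (1.32 to 1.59 CPM per kb) in every library, and Phkg1, the muscle gamma subunit, had at most 2 counts in any library. Skeletal muscle markers summed to at most 0.380 CPM.

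**Figure D4:**
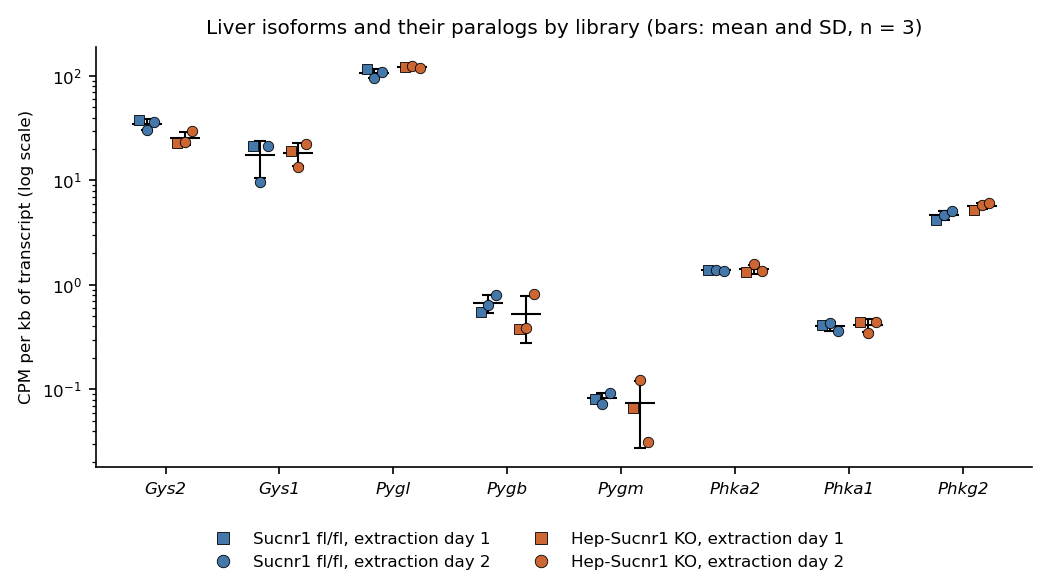
CPM per kb of transcript, on a log axis, of liver isoforms of synthase, phosphorylase and phosphorylase kinase and their paralogs in each library, with bars for the mean and SD of 3 libraries per genotype. Gys1 is within a few-fold of Gys2, while Pygb and Pygm are far below Pygl (99.2% to 99.6% of the phosphorylase sum).

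A list of 24 further genes of the pathway was read from the same fit. Of these, 21 were tested, 6 with positive and 15 with negative log2 fold changes and a median of −0.13. At an FDR of 0.05 edgeR called 0, as did DESeq2. At an unadjusted p below 0.05 there was 1 gene, Stbd1 (4.76% of 21, against 3.73% of all genes), which encodes a glycogen-binding protein and is named after its value was seen. It went from 88.0 ± 25.1 to 63.5 ± 9.28 CPM (SD, n = 3 each), with overlapping groups and a log2 fold change of −0.44 (SE 0.18). The groups did not overlap for 3 (14.3%, against 10.6% of all genes), namely Ppp1ca, a catalytic subunit of protein phosphatase 1, which was higher, and Pgm2l1 and Gaa, the lysosomal glucosidase, which were lower. The largest changes in each direction were 0.17 (SE 0.12) for Ppp1ca and −0.52 (SE 0.27) for Pgm2l1, a gene at only 1.06 to 2.05 CPM. Phkb, the beta subunit of phosphorylase kinase, had a log2 fold change of 0.09 (SE 0.15).

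Genes that move glucose or carry the hormone signals were read in the same way. Of 5 genes of glucose entry and release, 2 were higher and 3 lower, and 0 of them passed edgeR's FDR, an unadjusted p of 0.05 or DESeq2. Of 13 genes of glucagon and insulin signaling, 6 were higher and 7 lower, with 0 below an FDR of 0.05 by edgeR and 0 by DESeq2. At an unadjusted p below 0.05 there was 1 higher and 1 lower, against 1.91% and 1.81% of all genes. The lower gene was Irs2, an adaptor of the insulin receptor, at −0.50 (SE 0.19), which is named after its value was seen.

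For 4 members, the 3 genes nearest in pattern over the 6 libraries were found among 7065 genes of at least 10 CPM, by the root mean square difference of centered log2 CPM. Nearest to Gys2 were Dsg2 (0.0705), Utrn (0.0746) and Rbfox2 (0.0784), beside a root mean square of 0.278 for Gys2 itself. For Pygl they were Atp6v0d1 (0.0237), Tfr2 (0.0314) and Habp2 (0.0336), beside 0.128. For Ppp1r3b they were Slc30a10 (0.0706), Serpina4-ps1 (0.0907) and Hif1a (0.0988), beside 0.296. For Ppp1r3c they were Stard4 (0.186), Prss8 (0.232) and Bhlhe41 (0.233). These distances are larger, but so is the value of 0.651 for Ppp1r3c itself. These are descriptions over the same 6 libraries, of both genotypes and unequal depth.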

How the data were processed

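The table of raw gene counts was deposited by the authors, who trimmed reads with Trim Galore 0.6.7, aligned them to GRCm38 with STAR 2.7.10a and counted read pairs by strand with featureCounts on an Ensembl annotation. Libraries were poly(A)-selected and stranded, with 30504248 to 38770694 counts each. From the counts, genes with a mean DESeq2-normalized count above 5 were kept (15105) and tested with edgeR 4.0.16 (TMM, quasi-likelihood F test, extraction day and genotype, Benjamini-Hochberg adjustment over all genes, R 4.3.3). DESeq2 1.42.0 was the alternative. The edgeR step was tested on simulated data. Ratios and single values were compared with exact two-sided permutation tests. Named genes were the 9 members, isoforms of members, Phkb, the largest change in each direction of the other pathway list, the 3 nearest genes of 4 members, Sucnr1 and marker lists, and some named genes are not reported here. Members and lists were chosen with earlier results of these data known. Transcript lengths came from GENCODE for GRCm38.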

Additional observations from a re-analysis of the deposited data

How the results depend on the processing

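No member passed an FDR of 0.05 under any alternative tried (DESeq2, other scalings, filters, no day term, the library index series as a term, day 2 alone, and each library left out). DESeq2 called 7 genes for genotype and 4 for the interaction with day, none a member, where edgeR called 0. Gys2, Gbe1, Pygl, Ugp2, Phkg2 and Ppp1r3c kept their direction, but Ppp1r3c, at −0.59 in the reported model, was −0.06 with the index series as a term and −0.07 on day 2 alone. Ugp2, at −0.21, was −0.33 with the index series and −0.11 on day 2 alone. Gyg, Ppp1r3b and Phka2 changed sign. On day 2 alone Gyg was at −0.0239 and Ppp1r3b at 0.25, and with the index series, which is partly confounded with genotype, Phkb was at −0.0235 and Gys1 at −0.39. With 1 library left out, the log2 fold change by genotype ran from −0.0239 to 0.24 for Gyg, −0.25 to 0.26 for Ppp1r3b, −0.0318 to 0.10 for Phka2, −0.0181 to 0.18 for Phkb and −0.21 to 0.43 for Gys1. The log2 change by day ran from −0.25 to 0.20 for Gys2, −0.60 to 0.26 for Ppp1r3b, −1.46 to 0.19 for Ppp1r3c, −0.0192 to 0.0292 for Gbe1 and −0.0425 to 0.16 for Phka2. The cause was not tested. Leaving out a day 1 library leaves the other with no genotype information. No paired analysis was run, because the labels name no matched mice, and the libraries numbered 3 in each genotype come from different extraction days. Extraction day was a covariate in the reported model. With 3 libraries a genotype, the 95% interval of Gys2 reached from 0.565 to 0.939-fold.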
